A study of Mus musculus with 15 samples.

Results

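The chromatin marks of 7 mouse genes of Nodal and Lefty signalling were examined in embryonic stem cells (ESCs) and in D-EPSCs and L-EPSCs, which are expanded potential stem cells kept in either of the published culture conditions. The genes were chosen by name from 22350 protein-coding genes: Nodal, Tdgf1, Lefty1, Lefty2, Smad3, Smad7 and Skil. For each gene the annotated span (mm9 genome, GENCODE M1) was widened by 20 kb on each side, and the peaks and covered bases of all 6 peak lists were taken within this window. Merged, the 7 windows held 466.4 kb.

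ChIP-seq, which sequences the DNA bound to an immunoprecipitated histone mark, was done for H3K4me1 and H3K27ac in 2 samples of each state per mark, and each state had 1 input sample, which gave 15 samples. The deposited lists give 1 set of broad peaks per state and mark. They hold no read counts or scores, the read depth is unknown, and how the samples were combined is not given in the sources used here, so no value below has a replicate check and no test was possible. All cells were of strain 129SV and derived from the J1 ESC line, a single line, and their reads were placed on the mm9 reference genome, which is of another strain. ESCs were grown in serum with LIF, CHIR99021 and PD0325901. D-EPSCs were converted from ESCs and kept in N2B27 with KSR (a serum replacement), LIF, CHIR99021, dimethindene maleate and minocycline hydrochloride. L-EPSCs, also converted from ESCs, were kept in DMEM/F12 and KSR with LIF, CHIR99021, PD0325901, A-419259, XAV939, JNK inhibitor VIII and SB203580.

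H3K27ac peaks lay within 1 kb of the starts of Pou5f1, Sox2, Nanog and Zfp42 in all 3 states, 4 of 5 pluripotency genes looked up, and the fifth, Esrrb, had 41.38 to 62.12 kb of H3K27ac in its window without a peak at its start. Per the study's methods both EPSC states were grown without feeder cells before ChIP-seq, and ESCs on feeders or gelatin. None of 6 fibroblast genes (Col1a1, Col1a2, Col3a1, Thy1, Twist1 and Prrx1) had H3K27ac at its start in any state. Their 6 windows held 15.2 kb of H3K27ac (ESCs), 3.65 kb (D-EPSCs) and 2.93 kb (L-EPSCs) in sum, and the windows of Thy1, Twist1 and Prrx1 held none in any state. Most of the ESC sum was in the Col1a1 window, with 12.71 kb (ESCs), 1.03 kb (D-EPSCs) and 1.89 kb (L-EPSCs). The Col1a2 window held 0.32, 0.68 and 0.00 kb and that of Col3a1 2.19, 1.93 and 1.03 kb. The H3K27ac list covered 107.4 Mb (ESCs), 44.41 Mb (D-EPSCs) and 34.29 Mb (L-EPSCs), and the H3K4me1 lists covered 221.1, 187.5 and 173.1 Mb. Because the H3K27ac lists differ so much in extent, each difference at a gene is given beside the median over all gene windows.

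Nodal is a secreted ligand of the TGF-beta family that signals through activin receptors and phosphorylated Smad2 and Smad3, which enter the nucleus with Smad4 and bind DNA together with partners such as FoxH1. Tdgf1 (Cripto) is the coreceptor that Nodal needs, Lefty1 and Lefty2 are secreted antagonists that are themselves induced by the signal, Smad7 blocks the receptors from inside the cell, and Skil (SnoN) is a corepressor of Smad-bound genes. Nodal, the Lefty genes and Tdgf1 are well known to be transcribed in mouse ESCs and in the epiblast. H3K4me1 is found at enhancers and around promoters whether or not they are active, and H3K27ac at those that are active.

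The sequences that carried acetylation in all 3 states at the ligand and antagonist genes are shown first. FoxH1 is known to bind the letters TGTGGATT, and this motif was searched on both strands after a match had been seen at Lefty1. The member windows held 20 matches. H3K27ac peaks lay on 10 of them (ESCs), 8 (D-EPSCs) and 6 (L-EPSCs), and the last 6 were acetylated in all 3 states. Over the genome, 3.71% of 120348 matches were under H3K27ac in ESCs, 1.42% in D-EPSCs, 1.13% in L-EPSCs and 0.697% in all 3 states. Acetylation of matches was thus more frequent in these windows than over the genome, but of all bases in the windows 31.6% (ESCs), 13.2% (D-EPSCs) and 10.8% (L-EPSCs) were acetylated as well.

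Pairs of matches within 100 bp of each other and under H3K27ac in all 3 states occurred at 6 places in the genome, and 2 of the 6 were at the Lefty genes. The pair rule, like the motif, was set after values of these data had been seen. The place of the Lefty genes among the 6 is thus no independent result. Whatever their marks, 1695 of the 120348 matches over the genome had another within 100 bp. The pair at Lefty1 began 10.21 kb upstream of its start with its first bases 63 bp apart, and the pair at Lefty2 began 4.21 kb upstream of its start with its first bases 83 bp apart. Both also lay under H3K4me1 in all 3 states, and so did the other 4 pairs, whose nearest gene starts were those of A830018L16Rik, Vstm2l, Ncam1 and Syne1. Each Lefty sequence below is 300 bases of the mm9 reference, plus strand, outside exons, with the matches in capitals, read as TGTGGATT at Lefty1 (chr1:182854830-182855129) and on the other strand, as AATCCACA, at Lefty2 (chr1:182818919-182819218).
Lefty1 paired sites: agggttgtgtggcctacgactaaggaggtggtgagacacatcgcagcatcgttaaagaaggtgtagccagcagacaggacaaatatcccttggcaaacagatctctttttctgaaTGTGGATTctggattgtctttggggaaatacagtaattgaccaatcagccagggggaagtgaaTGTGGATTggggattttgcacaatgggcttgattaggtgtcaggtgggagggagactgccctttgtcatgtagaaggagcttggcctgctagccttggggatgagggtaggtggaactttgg
Lefty2 paired sites: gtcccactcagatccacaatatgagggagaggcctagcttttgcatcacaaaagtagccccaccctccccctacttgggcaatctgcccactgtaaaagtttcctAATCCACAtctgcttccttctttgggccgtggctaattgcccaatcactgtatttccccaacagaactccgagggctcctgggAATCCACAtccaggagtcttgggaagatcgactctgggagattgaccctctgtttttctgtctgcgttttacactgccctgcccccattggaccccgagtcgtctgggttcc

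Nodal had 2 matches, both in an intron, 1.33 and 2.12 kb downstream of its start with first bases 794 bp apart. The first lay under H3K27ac in all 3 states. The second lay under H3K27ac in ESCs and D-EPSCs and not in L-EPSCs, and under H3K4me1 in all 3 states. Of each, 120 bases are shown (mm9, plus strand, chr10:60881991-60882110 and chr10:60882785-60882904), with the match in capitals, on the other strand in both.
Nodal site 1: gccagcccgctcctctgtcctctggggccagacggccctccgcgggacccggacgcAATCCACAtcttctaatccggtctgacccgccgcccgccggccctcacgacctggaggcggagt
Nodal site 2: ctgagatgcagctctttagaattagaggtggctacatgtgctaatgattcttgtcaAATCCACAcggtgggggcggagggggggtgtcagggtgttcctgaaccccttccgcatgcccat

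The start regions of the Lefty genes are shown because H3K27ac differed there. Lefty2 had H3K27ac on its start in ESCs and not in either EPSC state, whereas Lefty1 had it near or on its start in all 3 states. The 250 bases before each start are given (mm9, plus strand, chr1:182864903-182865152 for Lefty1 and chr1:182822989-182823238 for Lefty2). They held 53.6% and 55.2% G and C, near the median of 54.0% over 22350 promoters, but only 1 and 4 CpG dinucleotides against a median of 8.
Lefty1: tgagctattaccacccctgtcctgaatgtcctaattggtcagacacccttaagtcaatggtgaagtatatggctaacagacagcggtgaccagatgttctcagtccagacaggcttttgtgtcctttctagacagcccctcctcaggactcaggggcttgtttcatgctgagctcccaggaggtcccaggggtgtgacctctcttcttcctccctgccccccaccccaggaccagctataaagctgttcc
Lefty2: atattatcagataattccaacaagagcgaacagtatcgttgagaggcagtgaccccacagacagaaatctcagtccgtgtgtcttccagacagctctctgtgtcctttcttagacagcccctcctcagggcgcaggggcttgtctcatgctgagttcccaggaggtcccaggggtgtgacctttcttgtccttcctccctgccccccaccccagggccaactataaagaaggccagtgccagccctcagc
Of 5 motifs searched on both strands (TGTGGATT, TGTGTATT, the octamer ATGCAAAT, the Smad palindrome GTCTAGAC and the CACCC box CCACACCC), none matched in the 250 bases before the start of Nodal, Tdgf1, Lefty1, Lefty2, Smad3 or Skil. At least 1 of the 5 matched in 6.38% of all promoters of that length. Lefty1 and Lefty2 are similar genes. Of the stretches of 50 bases that began in their spans, 10.3% (Lefty1) and 5.57% (Lefty2) had an exact copy in the window of the other, and of those of 150 bases 0.372% and 0.205%. Of the stretches of either length in the 5 kb before the starts, 0% had such a copy. The part of misplaced reads in the values was not tested.

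Across the merged windows, ESCs had 147.5 kb under H3K27ac (31.6% of the bases), D-EPSCs 61.49 kb (13.2%) and L-EPSCs 50.27 kb (10.8%). Under H3K4me1, ESCs had 233.0 kb (50.0%), D-EPSCs 214.2 kb (45.9%) and L-EPSCs 192.4 kb (41.3%). All 7 genes had less H3K27ac in both EPSC states than in ESCs as the lists were deposited, while H3K4me1 stayed within a log2 ratio of -0.77 to 0.17 of ESCs at every gene. The bar plot of covered bases gives the values by gene.

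**Figure D1:**
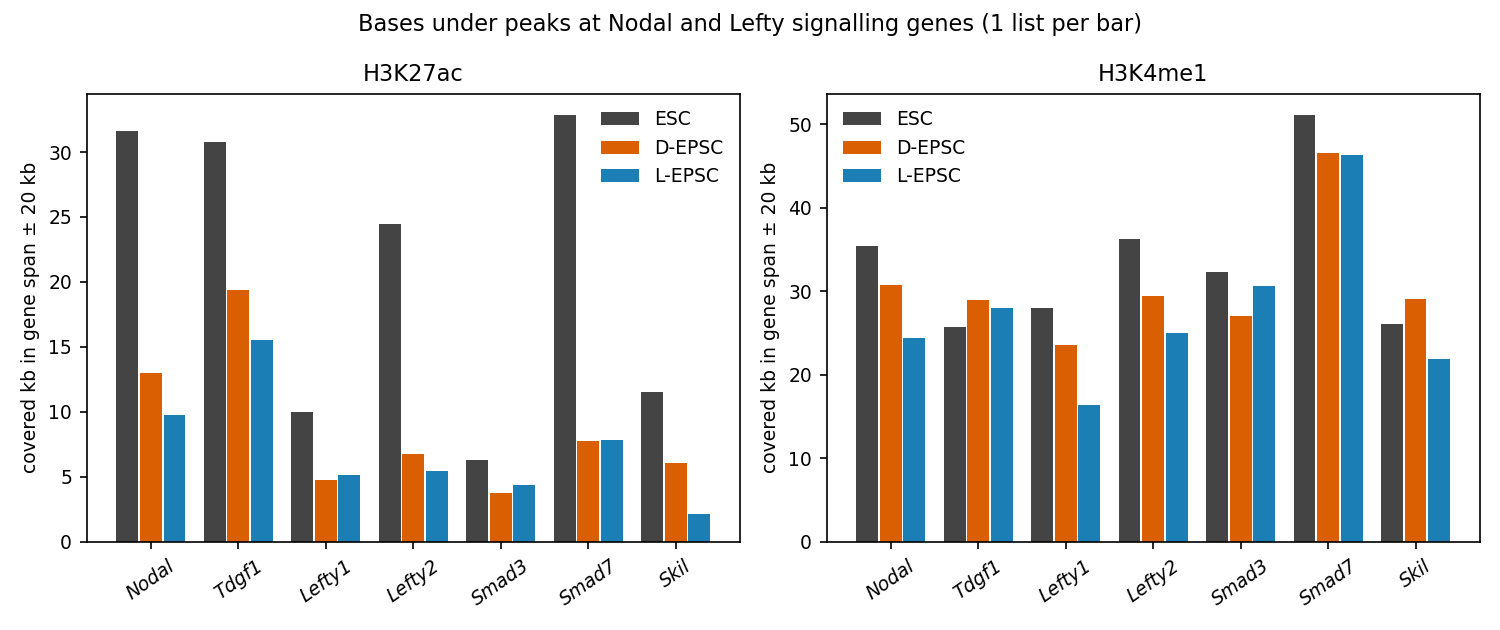
Kilobases under H3K27ac (left) and H3K4me1 (right) peaks in the window of each gene, its span with 20 kb on each side, for ESCs, D-EPSCs and L-EPSCs. Each bar is 1 peak list, so there are no error bars. H3K27ac was highest in ESCs at all 7 genes, and H3K4me1 differed less, most at Lefty1 with 28.05, 23.59 and 16.40 kb.

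Per length of window, Nodal and Tdgf1 had the most H3K27ac and Skil and Smad3 the least in every state. In ESCs, H3K27ac covered 66.8% of the window of Nodal and 66.1% of that of Tdgf1, then 53.2% at Lefty2, 48.0% at Smad7, 23.1% at Lefty1, 17.0% at Skil and 4.16% at Smad3. In D-EPSCs, Tdgf1 led with 41.6%, followed by Nodal with 27.4%, Lefty2 with 14.7%, Smad7 with 11.3%, Lefty1 with 11.0% and Smad3 with 2.50%, and Skil lay between Lefty1 and Smad3. In L-EPSCs it was 33.4% at Tdgf1, 20.7% at Nodal, 11.8% at both Lefty1 and Lefty2, 11.5% at Smad7, 3.13% at Skil and 2.89% at Smad3. The antagonists Lefty1 and Lefty2, far apart in ESCs, lay at the same level in L-EPSCs. H3K4me1 covered between 21.4% (Smad3) and 78.9% (Lefty2) of the windows in ESCs, between 17.9% (Smad3) and 68.1% (Smad7) in D-EPSCs, and between 20.3% (Smad3) and 67.7% (Smad7) in L-EPSCs. With 1 list each, neighbours in these orders cannot be told apart by their spread.

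A gene was called lower or higher when its covered bases differed at least 2-fold between lists, among windows with at least 1 kb covered in either. In D-EPSCs, H3K27ac was called lower than in ESCs at 4 of 7 genes (Nodal, Lefty1, Lefty2 and Smad7), against 61.6% of 13627 gene windows, and higher at none, against 4.66%. In L-EPSCs it was called lower at 4 of 7 (Nodal, Lefty2, Smad7 and Skil), against 79.6% of 13231 windows, and higher at none, against 1.79%. All 7 genes had over 5 kb of H3K27ac in ESCs, and among windows with at least 5 kb there, 73.3% (D-EPSCs) and 86.2% (L-EPSCs) were called lower. The 4 of 7 genes called lower were a smaller share than the background in both EPSC states, so these counts show no difference of the members from other genes. Between the EPSC states, 1 of 7 genes (Skil) was called lower in L-EPSCs, against 33.0% of 11271 windows, and none higher, against 5.49%.

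Both comparisons with ESCs share the ESC list. The median log2 ratio of H3K27ac over the 7 genes was -1.06 in D-EPSCs over ESCs, beside -1.32 over all windows, and -1.69 in L-EPSCs over ESCs, beside -2.00. For L-EPSCs over D-EPSCs it was -0.32, beside -0.58. The lower direction depended on the lists' extent. With each value taken as a share of its list's covered bases, the medians over ESCs were 0.21 (D-EPSCs) and -0.04 (L-EPSCs). No gene was then called lower in either, and Smad3 was called higher in L-EPSCs. Under that scaling Lefty2 and Smad7 remained below 0 in both EPSC states, Tdgf1, Lefty1 and Smad3 were above 0 in both, Nodal was within 0.04 of 0, and Skil was above 0 in D-EPSCs and below 0 in L-EPSCs. The plot of log2 ratios shows each gene beside the band of all windows.

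**Figure D2:**
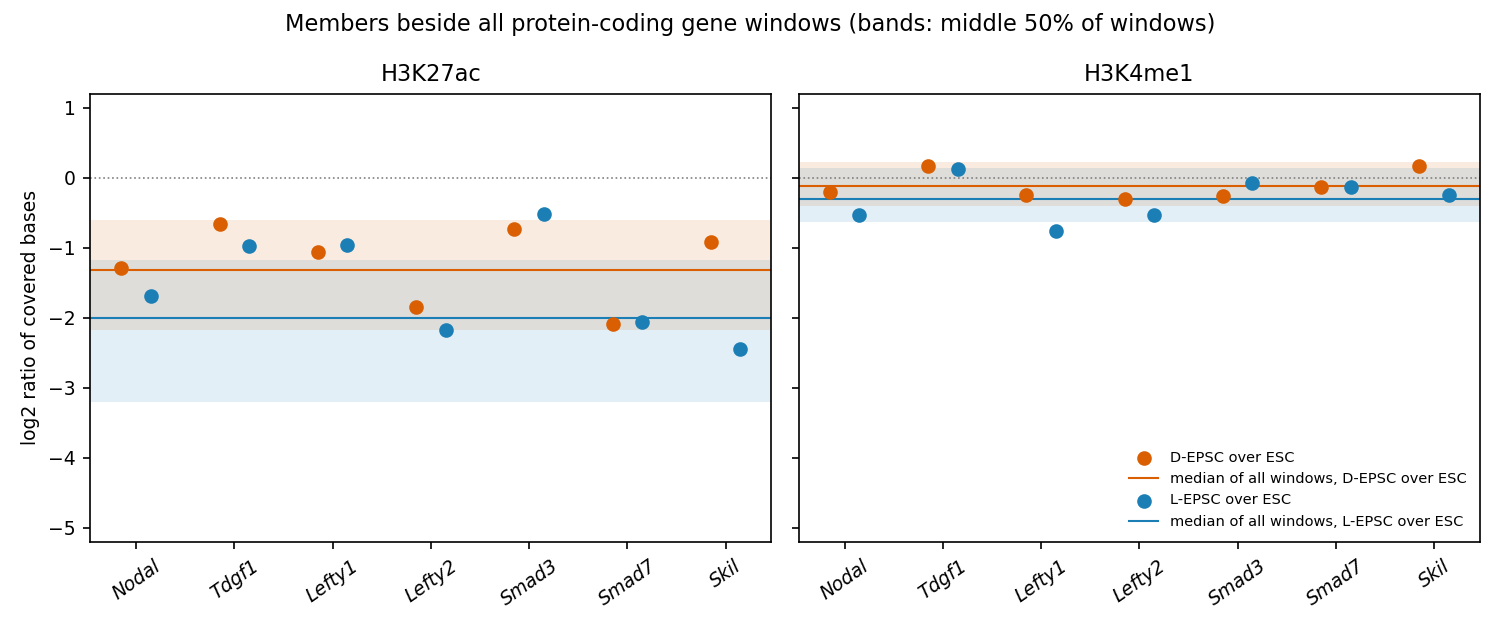
Log2 ratio of covered bases over ESCs for each gene in D-EPSCs (orange points) and L-EPSCs (blue points), for H3K27ac (left) and H3K4me1 (right). Lines mark the median of all protein-coding gene windows and bands their middle 50%, from -2.17 to -0.60 for D-EPSCs and from -3.20 to -1.18 for L-EPSCs in H3K27ac. Tdgf1, Lefty1 and Smad3 lie above the L-EPSC band in H3K27ac, and the lowest H3K4me1 points are those of Lefty1 (-0.77), Nodal (-0.54) and Lefty2 (-0.54) in L-EPSCs.

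For H3K4me1, none of the 7 genes was called in any comparison as the lists were deposited, and 1 (Tdgf1) was called lower in D-EPSCs when peaks at the starts of other genes were left out. That call rests on leaving out whole peaks, which differ in length between the states. The backgrounds were 4.52% of 18111 windows lower and 8.53% higher in D-EPSCs over ESCs, 9.12% of 18292 lower and 9.27% higher in L-EPSCs over ESCs, and 2.98% of 18363 lower and 3.17% higher in L-EPSCs over D-EPSCs. With so few windows called in the background, none among 7 is near what these shares give. The median log2 ratios of the genes were -0.21, -0.25 and -0.23 in these comparisons, beside -0.12, -0.30 and -0.18 over all windows. As shares of each list's covered bases they were 0.03, 0.10 and -0.12, so the direction over ESCs turned.

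Nodal, the ligand, lies on the plus strand at chr10:60880720-60888086. Its 47.4 kb window also holds part of Eif4ebp2, a translation regulator. H3K27ac covered 31.63 kb of the window (ESCs), 12.96 kb (D-EPSCs) and 9.79 kb (L-EPSCs). The log2 ratios over ESCs were -1.29 (D-EPSCs) and -1.69 (L-EPSCs), which is 0.03 and 0.31 above the median of all windows, so Nodal differed between the states about as much as the median gene did in D-EPSCs and somewhat less in L-EPSCs. The call depended on the window: with 10 kb on each side the ratios were -0.54 and -0.83, and by numbers of peaks -0.49 in both, so it was lost in both EPSC states, and over the gene span alone it was lost in D-EPSCs (-0.91). All of the H3K27ac of both EPSC states lay inside the ESC peaks, beside 78.4% (D-EPSCs) and 83.6% (L-EPSCs) over the genome.

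In ESCs a single H3K27ac peak of 20985 bp ran from 15.91 kb upstream of the Nodal start to 5.07 kb downstream, and a peak of 6351 bp ended 17.03 kb upstream. In D-EPSCs the peak over the start was 10213 bp long and began 7.51 kb upstream, and in L-EPSCs it was 7004 bp long and began 5.36 kb upstream. The acetylated block thus still covered the start and was narrower on both sides. Smaller peaks between 6.14 and 9.99 kb upstream remained in L-EPSCs. The distal region 17.03 to 23.38 kb upstream held 6.35 kb of H3K27ac (ESCs), 0.26 kb (D-EPSCs) and none (L-EPSCs). In the same bases H3K4me1 covered 4.97, 3.75 and 1.88 kb. On the other side, the region in an Eif4ebp2 intron 20.61 to 23.71 kb downstream of the Nodal start had 3.10 kb of H3K27ac (ESCs), 0.34 kb (D-EPSCs) and none (L-EPSCs), with H3K4me1 at 3.10, 2.53 and 2.17 kb.

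The widest ESC-only H3K27ac region in the Nodal window outside exons was 2113 bp long, 24.45 to 26.57 kb downstream of its start, in an Eif4ebp2 intron. H3K4me1 remained on 2.11 kb (D-EPSCs) and 1.90 kb (L-EPSCs) of it. Its central 300 bases (mm9, plus strand, chr10:60906081-60906380) held none of the 5 motifs, at least 1 of which matched in the centre of 8.40% of 59907 H3K27ac regions outside exons.
Nodal region: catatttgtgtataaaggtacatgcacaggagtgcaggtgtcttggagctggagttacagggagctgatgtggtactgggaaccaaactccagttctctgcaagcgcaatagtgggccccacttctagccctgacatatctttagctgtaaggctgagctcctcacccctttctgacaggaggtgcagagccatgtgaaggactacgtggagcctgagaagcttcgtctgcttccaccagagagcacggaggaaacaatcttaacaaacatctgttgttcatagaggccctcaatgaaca
H3K4me1 over the whole window was 35.44 kb (ESCs), 30.71 kb (D-EPSCs) and 24.35 kb (L-EPSCs). Its log2 ratios over ESCs were -0.21 and -0.54, and relative to the median of all windows -0.09 and -0.24. The first base of Nodal was outside H3K4me1 in ESCs, where peaks ended 0.37 kb upstream and began again 2.01 kb downstream, and under it in both EPSC states.

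**Figure D3:**
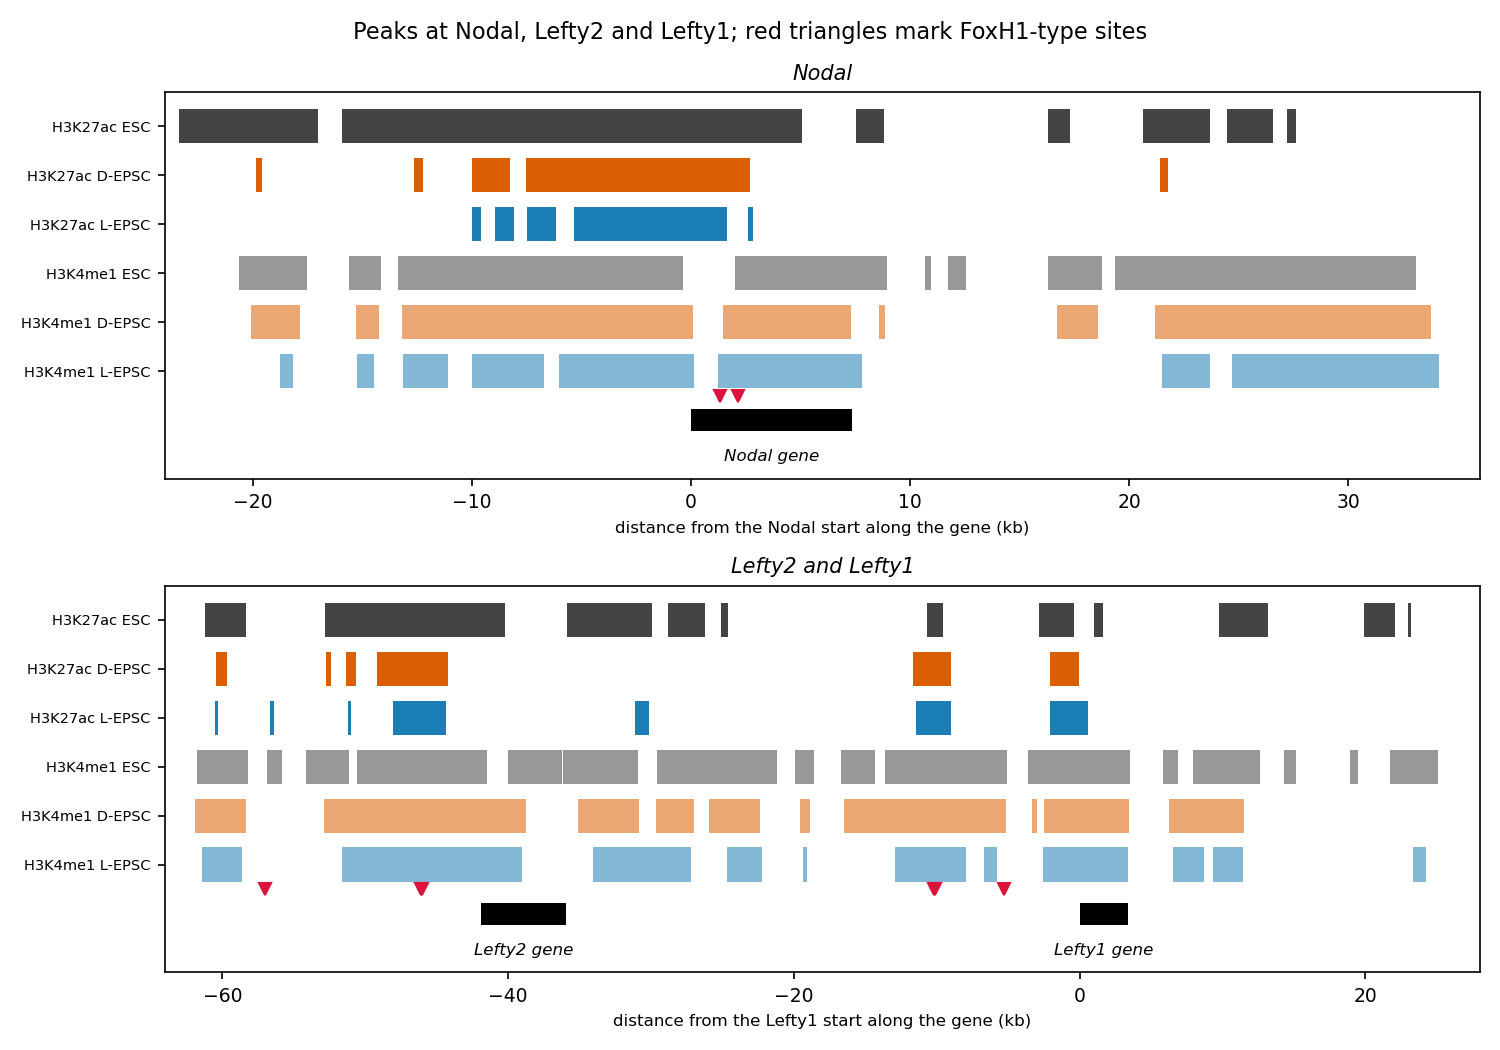
Peaks of each list at Nodal (top) and at Lefty2 and Lefty1 (bottom), by distance in kb from the Nodal and the Lefty1 start along the genes, with gene spans in black and red triangles at the TGTGGATT matches. Above the start of Nodal the H3K27ac peak of 20985 bp in ESCs is 10213 bp long (D-EPSCs) or 7004 bp long (L-EPSCs), and the region near 10 kb upstream of Lefty1 is wider in both EPSC states than in ESCs.

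Tdgf1, the Nodal coreceptor, lies on the minus strand at chr9:110842114-110848662, and its 46.5 kb window reaches into the neighbouring gene Lrrc2. H3K27ac covered 30.75 kb (ESCs), 19.36 kb (D-EPSCs) and 15.56 kb (L-EPSCs). The log2 ratios over ESCs, -0.67 and -0.98, were 0.65 and 1.02 above the median of all windows, and 72.9% and 80.1% of windows had lower ratios. Tdgf1 had the highest D-EPSC ratio of the 7 genes. Its ESC peak of 23081 bp, from 20.46 kb upstream to 2.62 kb downstream of the start, was replaced by peaks of 10541 and 7670 bp (D-EPSCs) or of 9509 and 4816 bp (L-EPSCs) over the same stretch. Of the 10 smaller ESC peaks downstream of it, 2 had a counterpart in D-EPSCs and none in L-EPSCs.

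Tdgf1 was the gene with more H3K4me1 in both EPSC states, at 25.75 kb (ESCs), 28.96 kb (D-EPSCs) and 27.98 kb (L-EPSCs), with log2 ratios of 0.17 and 0.12. H3K4me1 also came nearer to its start: the nearest ESC peak upstream ended 1.54 kb away, the D-EPSC peak 0.74 kb away, and in L-EPSCs the peak covered the start. These values rest in part on peaks that also reach the start of another gene. Without such peaks the H3K4me1 ratio was -1.10 in D-EPSCs, a call, and -0.31 in L-EPSCs, so the direction turned in both. The H3K27ac ratio without them was 0.12 in D-EPSCs, which also turned, and -0.43 in L-EPSCs. Whole peaks were left out, however long. In H3K4me1 this took a D-EPSC peak of 20366 bp, whereas the ESC bases over that stretch were split into shorter peaks. In H3K27ac it took the ESC peak of 23081 bp. The turns thus depend on how peaks were joined and do not show which gene the marks belong to.

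Lefty1 (chr1:182865153-182868531) and Lefty2 (chr1:182823239-182829234), the secreted antagonists, are neighbours on the plus strand with 35.9 kb between them, and their windows overlap by 4.08 kb. Over both windows together, 85.3 kb, H3K27ac covered 34.46 kb in 11 peaks (ESCs), 11.57 kb in 6 peaks (D-EPSCs) and 10.56 kb in 7 peaks (L-EPSCs). H3K4me1 covered 62.26 kb in 16 peaks, 51.79 kb in 10 and 41.21 kb in 11. Counted once, the stretch between the genes held 5, 2 and 3 H3K27ac peaks with 12.55, 4.79 and 5.57 kb in ESCs, D-EPSCs and L-EPSCs. Its H3K4me1 was 29.26 kb in 6 peaks, 25.35 kb in 7 and 18.03 kb in 6. The overlap of the windows held no H3K27ac in any state.

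The pair did not share 1 pattern. Lefty2 had 24.46 kb of H3K27ac in its window (ESCs), 6.78 kb (D-EPSCs) and 5.43 kb (L-EPSCs), with log2 ratios over ESCs of -1.85 and -2.17, or -0.53 and -0.17 relative to the median of all windows. Lefty1 had 10.01, 4.79 and 5.13 kb, with ratios of -1.06 and -0.96, which were 0.26 and 1.03 above it. Whether these ratios differ beyond the error of the lists was not tested. The study names Lefty1 among its EPSC signature genes. It chose these by differential histone marks from read counts, open chromatin and higher expression in EPSCs. Peak lists without counts cannot repeat that choice, and the lower window totals at Lefty1 are no check of it.

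At Lefty2 the ESC peak of 12571 bp ran from 10.89 kb upstream of the start to 1.68 kb downstream and so covered the start. In D-EPSCs the main peak was 4939 bp long, from 7.25 to 2.31 kb upstream, and in L-EPSCs 3717 bp, from 6.16 to 2.44 kb upstream. Both hold the paired TGTGGATT matches printed above, and both stop short of the start, so Lefty2 was the only member with H3K27ac within 1 kb of its start in ESCs and in neither EPSC state. Within a start window of 2500 bp it had H3K27ac in all 3 states. H3K4me1 covered the Lefty2 start in all 3 states, in peaks of 9120 bp (ESCs), 14136 bp (D-EPSCs) and 12654 bp (L-EPSCs). The window held 36.29 kb of H3K4me1 (ESCs), 29.40 kb (D-EPSCs) and 25.04 kb (L-EPSCs).

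At Lefty1 the peak near the start was of similar length in the 3 states, with 2432 bp (ESCs), 2075 bp (D-EPSCs) and 2676 bp (L-EPSCs). It ended 0.39 kb before the start in ESCs and 0.01 kb before it in D-EPSCs, and in L-EPSCs it crossed the start and ended 0.57 kb downstream. The region with the paired matches was wider in the EPSCs. It measured 1116 bp (ESCs), 2712 bp (D-EPSCs) and 2453 bp (L-EPSCs), reaching 10.71, 11.69 and 11.48 kb upstream. Both EPSC peaks contain the whole ESC peak. Of the EPSC acetylation in the Lefty1 window, 1.97 kb (D-EPSCs) and 2.30 kb (L-EPSCs) lay outside the ESC peaks.

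Of the ESC acetylation at Lefty1, 7.19 kb (D-EPSCs) and 7.17 kb (L-EPSCs) was lacking. It included whole peaks without a counterpart in either EPSC state, of 673 bp within the gene and of 3413, 2141 and 230 bp over Tmem63a, an ion channel gene, from 9.75 kb downstream of the Lefty1 start. The peak near the start also began further upstream in ESCs, at 2.82 kb, than in D-EPSCs (2.09 kb) and L-EPSCs (2.10 kb). H3K4me1 in the window was 28.05 kb (ESCs), 23.59 kb (D-EPSCs) and 16.40 kb (L-EPSCs). The L-EPSC ratio of -0.77 was the lowest H3K4me1 value of the 7 genes, and 17.6% of all windows had a lower one. With every list shortened to its widest peaks of equal total length, the ESC list of 3725 peaks held no H3K27ac in the Lefty1 window, against 4.79 kb (D-EPSCs) and 5.13 kb (L-EPSCs). The widest ESC peak there, of 3413 bp, was too narrow to be kept. The turned direction thus followed from the shortening and is no result about Lefty1.

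Smad3, the transducer, is on the minus strand at chr9:63494574-63605801 and has the longest window, 151 kb, which includes part of Aagab. H3K27ac covered 6.29 kb (ESCs), 3.78 kb (D-EPSCs) and 4.38 kb (L-EPSCs), the lowest share of the window among the 7 genes in each state. The log2 ratios of -0.74 and -0.52 were 0.59 and 1.47 above the median of all windows. Of the bases acetylated in EPSCs, 16.6% (D-EPSCs) and 37.0% (L-EPSCs) lay inside ESC peaks, the lowest shares of the 7 genes. Over the genome the shares were 78.4% and 83.6%. The widest H3K27ac region of Smad3 lay in an intron, 14.52 to 17.26 kb downstream of the start, and had 282 bp (ESCs), 2623 bp (D-EPSCs) and 2377 bp (L-EPSCs). Both EPSC peaks there contain the whole ESC peak, so the place was shared though most of the bases were not. The bases shared by both EPSC peaks measured 2261 bp. Their central 300 bases (mm9, minus strand, chr9:63589887-63590186) are shown as a place with more acetylation in both EPSC states than in ESCs, with the octamer ATGCAAAT, a sequence that Oct factors are known to bind, in capitals. This motif matched in 1.64% of H3K27ac regions of that length.
Smad3 intron: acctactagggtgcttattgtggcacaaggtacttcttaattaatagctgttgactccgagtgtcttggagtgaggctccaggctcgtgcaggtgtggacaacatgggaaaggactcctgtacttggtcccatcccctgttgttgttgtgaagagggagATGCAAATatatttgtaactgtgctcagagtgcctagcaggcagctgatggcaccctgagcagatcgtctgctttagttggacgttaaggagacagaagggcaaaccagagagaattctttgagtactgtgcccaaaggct

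The whole of this intronic region was under H3K4me1 in all 3 states, 2.74 kb in each. At the Smad3 start, only D-EPSCs had H3K27ac, in a peak of 752 bp, while H3K4me1 lay within 1 kb of the start in all 3 states and covered its first base in L-EPSCs. The H3K4me1 of the window was 32.32 kb (ESCs), 27.08 kb (D-EPSCs) and 30.63 kb (L-EPSCs). Of the 8 TGTGGATT matches in the Smad3 window, 2 were under H3K27ac in ESCs and none in D-EPSCs or L-EPSCs. The lower direction at Smad3 also depended on how the lists were cut. With equal covered bases its H3K27ac was 0.00 kb (ESCs), 2.62 kb (D-EPSCs) and 4.38 kb (L-EPSCs), and with equal numbers of peaks the log2 ratios over ESCs were 1.38 and 1.59. Both cuts keep the widest peaks, and the ESC peaks here, at most 1453 bp long, were all or mostly dropped by them. These values thus follow from the cuts.

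**Figure D4:**
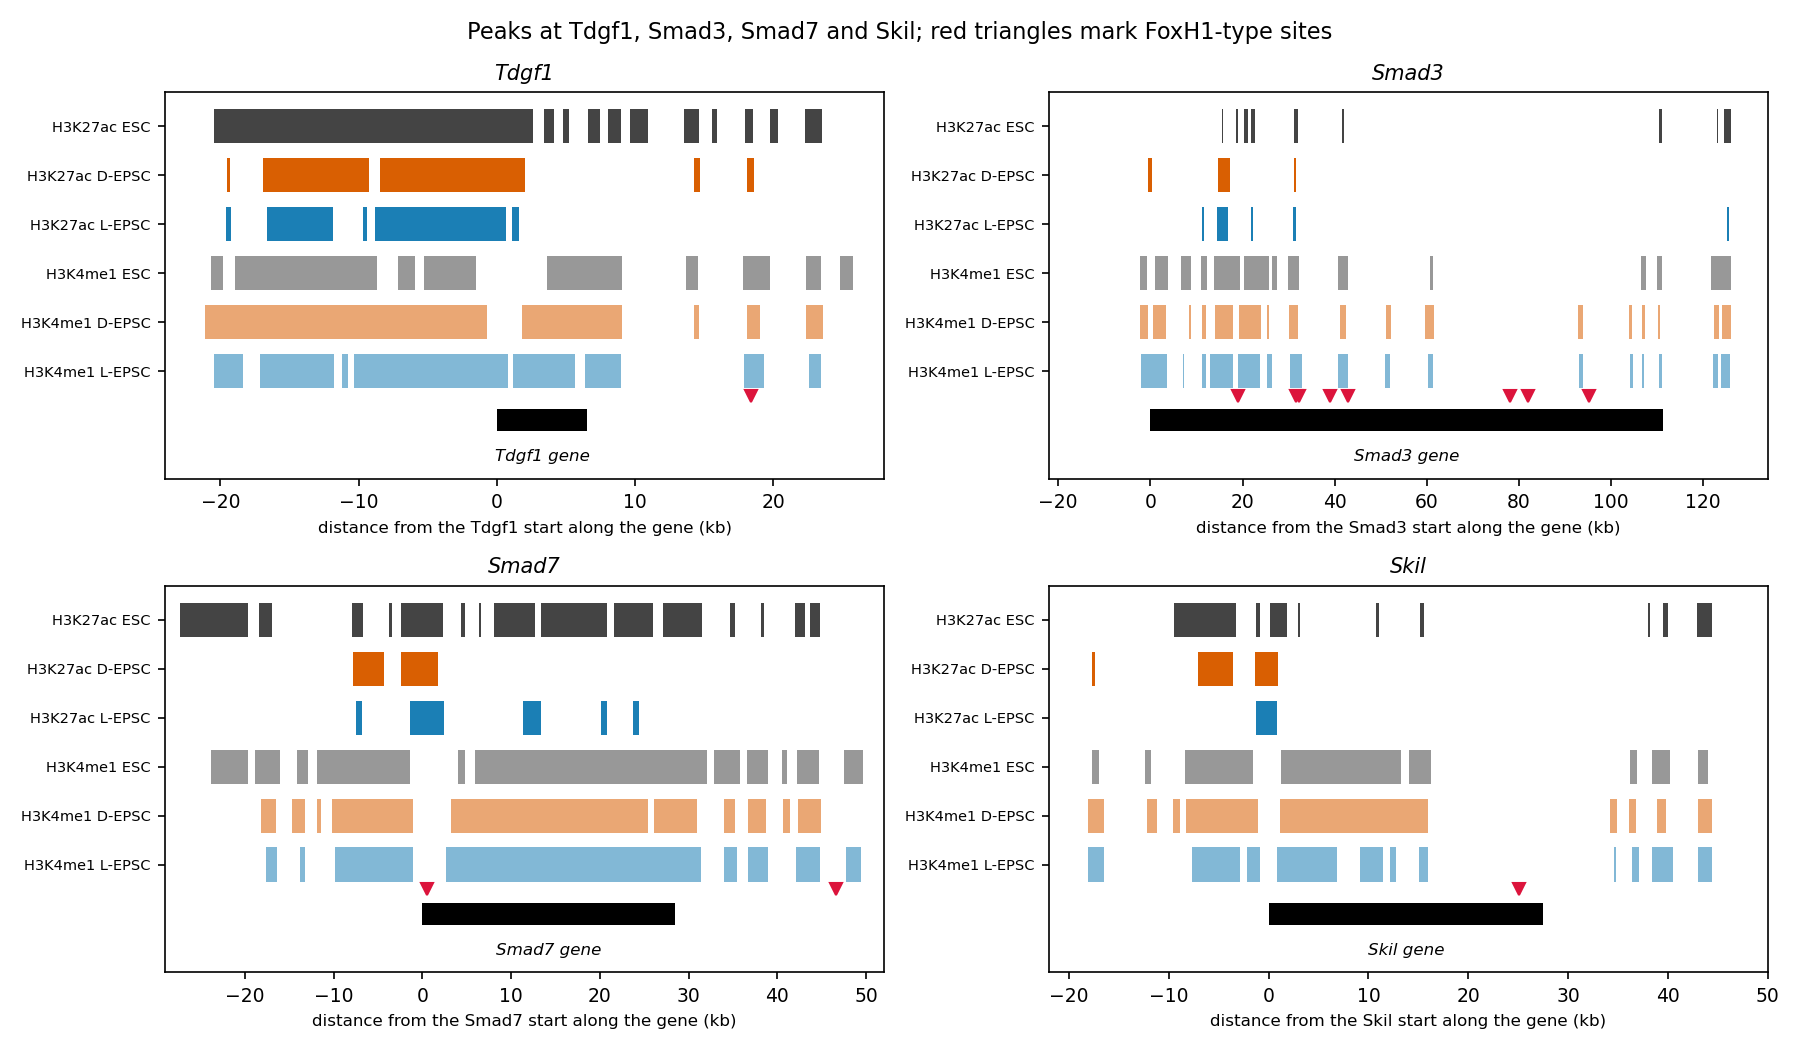
Peaks of each list at Tdgf1, Smad3, Smad7 and Skil, by distance in kb from each start along the gene, with the gene span in black and red triangles at the TGTGGATT matches. At Smad7 H3K27ac peaks of ESCs fill much of the gene. Within the gene D-EPSCs have only the peak at the start, and L-EPSCs have that peak and shorter ones. At Skil the upstream peak of 6252 bp in ESCs is absent in L-EPSCs, and at Smad3 the intronic peak near 15 kb is wider in both EPSC states.

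Smad7, the inhibitory Smad, lies on the plus strand of chromosome 18 from base 75527183 to base 75555589, and its 68.4 kb window holds no other protein-coding gene. H3K27ac covered 32.86 kb (ESCs), 7.74 kb (D-EPSCs) and 7.87 kb (L-EPSCs). The log2 ratios, -2.09 and -2.06, were -0.77 and -0.06 relative to the median of all windows, and Smad7 had the lowest D-EPSC ratio of the members. The peak over the start was kept, with 4771 bp (ESCs), 4202 bp (D-EPSCs) and 3809 bp (L-EPSCs). Most of the difference lay in the body and at the end of the gene, where ESC peaks of 4670, 7479, 4357 and 4490 bp followed each other from 8.03 to 31.55 kb downstream of the start. No D-EPSC peak was found there, and L-EPSCs had peaks of 2041, 617 and 722 bp.

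The bases at Smad7 without acetylation stayed under H3K4me1. Of the 27.53 kb acetylated in ESCs and not in D-EPSCs, 90.7% was under H3K4me1 in D-EPSCs, and of the 25.68 kb acetylated in ESCs and not in L-EPSCs, 94.4% was under H3K4me1 in L-EPSCs, the highest shares of the 7 genes. H3K4me1 in the window was 51.12 kb (ESCs), 46.56 kb (D-EPSCs) and 46.32 kb (L-EPSCs), and it left the start free in all 3 states. Upstream, a D-EPSC peak of 3535 bp, from 7.87 to 4.33 kb before the start, was longer than the ESC peak of 1210 bp or the L-EPSC peak of 682 bp there. With lists of equal covered bases the H3K27ac values at Smad7 were 7.79, 7.74 and 7.87 kb. Such lists keep the widest peaks, and the ESC value no longer held the peak of 4771 bp over the start. The like totals thus came in part from different places and do not show that the states were alike.

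Skil, the corepressor, lies on the plus strand at chr3:30993980-31021499 in a window of 67.5 kb with no other protein-coding gene. H3K27ac covered 11.50 kb (ESCs), 6.08 kb (D-EPSCs) and 2.11 kb (L-EPSCs). Skil had the lowest L-EPSC ratio of the members and was the only one with a call between the EPSC states, at a log2 ratio of -1.53. With 50 kb on each side this ratio was -0.90 and over the gene span alone -0.06, so the call was lost in both. The ratios over ESCs were -0.92 (D-EPSCs) and -2.45 (L-EPSCs), or 0.40 and -0.45 relative to the median of all windows. An upstream peak, from 9.50 to 3.25 kb before the start and 6252 bp long in ESCs, was 3513 bp long in D-EPSCs and absent in L-EPSCs, where the peak of 2111 bp at the start was the only one in the window. Over that upstream region H3K4me1 remained, at 5.17 kb (ESCs), 5.65 kb (D-EPSCs) and 4.46 kb (L-EPSCs). H3K4me1 over the window was 26.06, 29.07 and 21.90 kb, with log2 ratios over ESCs of 0.16 (D-EPSCs) and -0.25 (L-EPSCs).

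At the gene starts the states differed in which genes were marked. H3K27ac lay within 1 kb of the start in 6 of 7 genes in ESCs (all but Smad3), 6 of 7 in D-EPSCs (all but Lefty2) and 5 of 7 in L-EPSCs (all but Lefty2 and Smad3), against 35.7%, 35.3% and 28.8% of all genes. H3K4me1 lay there in 4 genes in ESCs (Nodal, Lefty1, Lefty2 and Smad3), 5 in D-EPSCs (with Tdgf1 in addition) and 6 in L-EPSCs (with Tdgf1 and Skil), against 57.5%, 67.1% and 68.0% of all genes. On the first base of the gene, H3K4me1 lay in 2 genes (ESCs), 3 (D-EPSCs) and 5 (L-EPSCs), against 11.4%, 26.2% and 31.8% of all genes. The share over all genes thus rose in the same order.

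When overlapping peaks of the 3 states were joined, the windows held 64 H3K27ac regions. Of these, 38 were in ESCs only (59.4%, against 53.6% over the genome), 12 were in all 3 states (18.8%, against 21.3%), 5 in ESCs and D-EPSCs (7.81%, against 9.87%), 5 in ESCs and L-EPSCs (7.81%, against 4.06%), 2 in D-EPSCs only (3.12%, against 6.03%) and 2 in L-EPSCs only (3.12%, against 2.77%). The D-EPSC regions were the 752 bp peak at the Smad3 start and a 301 bp peak 17.68 kb upstream of Skil, and the L-EPSC regions were a 267 bp peak 14.73 kb upstream of Lefty2 and a 435 bp peak in Smad3. No region was found in both EPSC states and not in ESCs, against 2.35% of regions over the genome. The bases that both EPSC states added at Lefty1 and Smad3 thus adjoined ESC regions. Of 57 H3K4me1 regions, 41 were in all 3 states (71.9%, against 52.7%), 6 in ESCs only (10.5%, against 14.5%), 4 in ESCs and D-EPSCs (7.02%, against 5.89%), 4 in both EPSC states (7.02%, against 7.27%), 1 in ESCs and L-EPSCs (1.75%, against 5.17%), 1 in D-EPSCs only (1.75%, against 6.17%) and none in L-EPSCs only (against 8.23%). Of the 4 regions in both EPSC states, 3 were at Smad3 and 1 was at Skil.

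The share of H3K4me1 peaks that overlapped H3K27ac was higher in ESCs than in either EPSC state. It was 64.6% in ESCs (42 of 65 peaks, 95% exact binomial interval 51.8 to 76.1%), 29.3% in D-EPSCs (17 of 58, 18.1 to 42.7%) and 32.3% in L-EPSCs (20 of 62, 20.9 to 45.3%), beside 39.4%, 22.2% and 17.9% over the genome. The intervals cover the counting of peaks only, not the spread between samples. In the other direction most H3K27ac peaks overlapped H3K4me1, 57 of 62 (ESCs), 23 of 24 (D-EPSCs) and 27 of 28 (L-EPSCs), and so did 82.8%, 83.4% and 87.3% of those over the genome. Over all members, 95.04 kb was acetylated in ESCs and not in D-EPSCs, of which 79.9% was under H3K4me1 in D-EPSCs, beside 60.9% over the genome. For L-EPSCs it was 104.21 kb, of which 72.9% was under H3K4me1, beside 57.4%. The share was lowest at Lefty1, 39.8% (D-EPSCs) and 38.4% (L-EPSCs), and at Lefty2 it was 86.3% and 76.2%. Not all of these bases had H3K4me1 in ESCs. For the D-EPSC and L-EPSC comparisons, 67.1% and 67.0% had it there at Lefty1, and 87.4% and 90.6% at Lefty2. Over all members it was 86.1% and 87.3%, beside 80.6% and 79.9% over the genome.

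The genes whose 6 values were most like those of a member were looked up among all protein-coding windows, as the distance over the 6 lists of log2 of the covered kb plus 1. Nearest to Nodal were Dcaf4 (distance 0.185) and Slc5a11 (0.186), nearest to Lefty1 were Tbc1d10c (0.132) and Srsf10 (0.172), and nearest to Lefty2 were Clec16a (0.220) and Dctn2 (0.265). Dcaf4, for example, had 28.63, 12.55 and 9.32 kb of H3K27ac in ESCs, D-EPSCs and L-EPSCs. Amounts like those of these 3 members were thus met at other genes too.

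The rest of the pathway was described with 37 other genes of Nodal, activin and TGF-beta signalling. In H3K27ac, 19 of the 27 that had at least 1 kb were called lower in D-EPSCs than in ESCs, against 61.6% of all windows, with a median log2 ratio of -1.72. In L-EPSCs 22 of 27 were called lower, against 79.6%, and none higher, against 1.79%, with a median of -2.22. These counts were near the background. The medians of all windows, -1.32 and -2.00, and of the 7 members, -1.06 and -1.69, were less negative. By role, those called lower in each EPSC state were 6 of 9 intracellular inhibitors, 3 of 4 ligands, 2 of 2 receptors (Acvr1b and Acvr2b) and 2 of 2 secreted antagonists (Dand5 and Fst). Of 5 targets 4 (D-EPSCs) and 5 (L-EPSCs) were called lower, of 3 transducers 1 and 2, and of 2 convertases 1 and 2. The shares of all windows were the same 61.6% and 79.6%, and each role holds few genes.

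A total of 18 of 27 genes of the list were called lower in both EPSC states, against 60.1% of 13138 windows tested in both. Those with the most covered kb in ESCs, whatever their length, were Pmepa1, which holds Smads away from receptors, with 45.43 kb (ESCs), 8.75 kb (D-EPSCs) and 19.56 kb (L-EPSCs), and Pcsk6, a convertase that cleaves the Nodal precursor, with 41.38, 9.86 and 8.47 kb. Acvr1b, a type I receptor for activin and Nodal, had 31.78, 5.21 and 9.20 kb. Smad6, an inhibitory Smad like Smad7, had 27.86, 2.27 and 1.64 kb. The ubiquitin ligase gene Smurf1 had 27.67, 7.27 and 5.95 kb and the corepressor gene Tgif2 21.88, 7.21 and 5.30 kb.

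**Figure D5:**
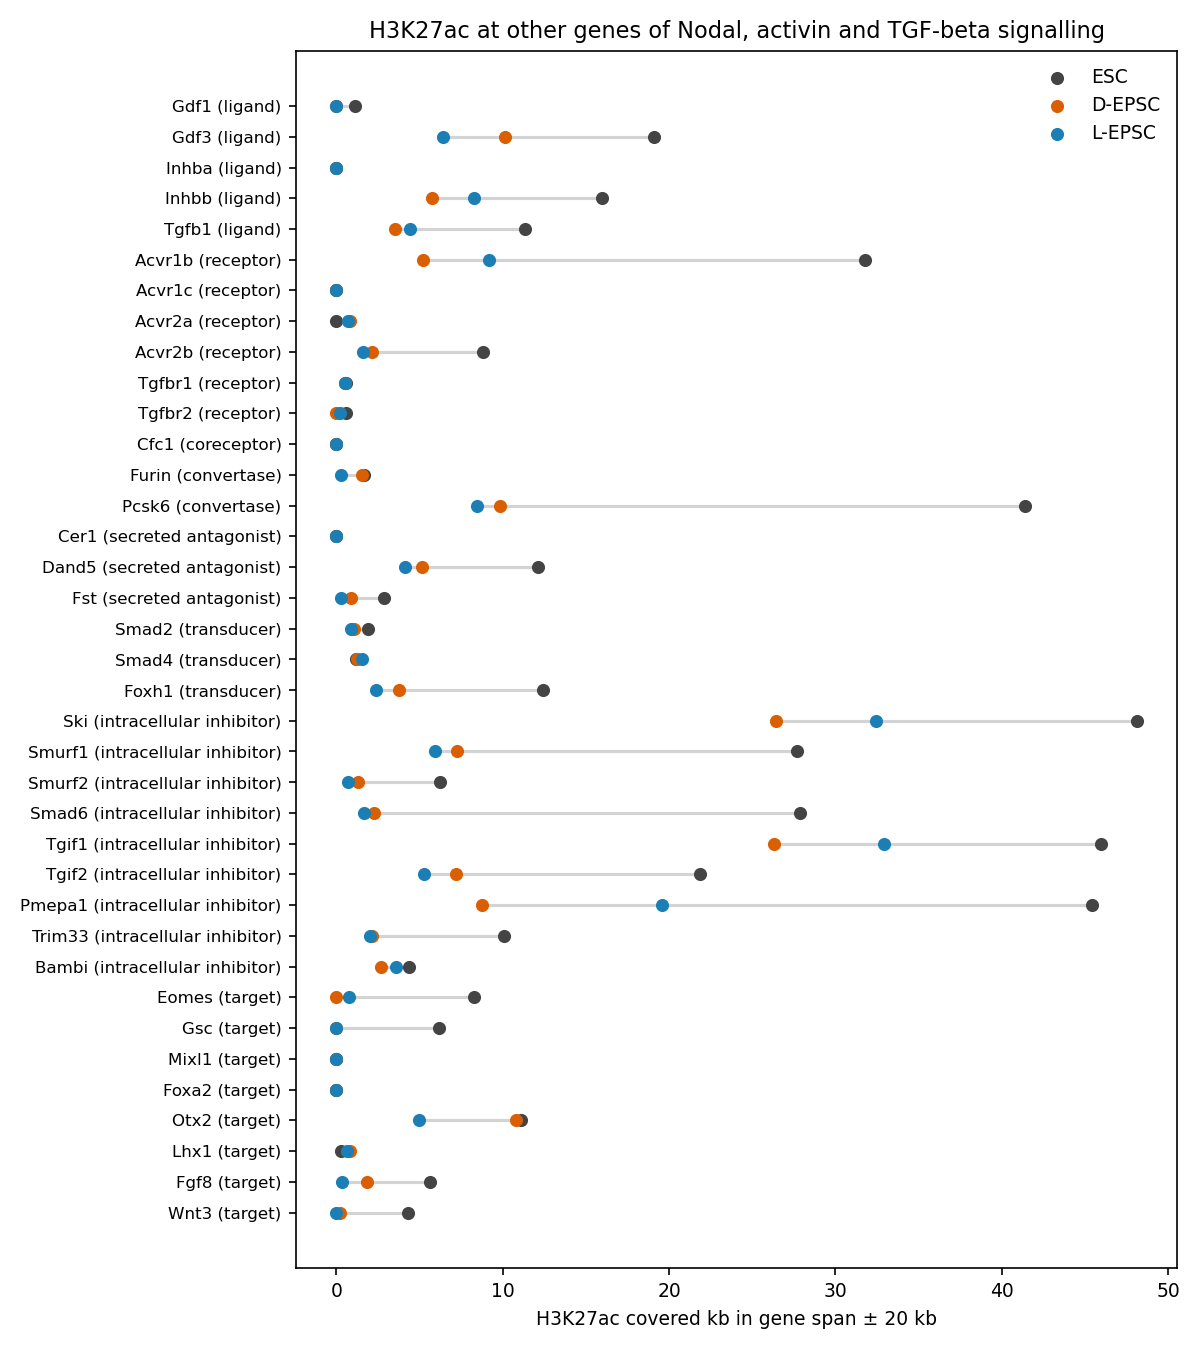
Kilobases under H3K27ac peaks in the window of each of the 37 other pathway genes, grouped by role, with 1 point per list (ESCs black, D-EPSCs orange, L-EPSCs blue) joined by a line from lowest to highest. The ESC point is the highest at most genes with several kb of H3K27ac, for example Pmepa1 at 45.43 kb in ESCs against 8.75 and 19.56 kb.

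In H3K4me1, 1 of 36 tested genes of the list was called lower in D-EPSCs (Cfc1, a coreceptor related to Tdgf1) and 3 were called higher, against 4.52% and 8.53% of all windows. In L-EPSCs 2 of 37 were called lower (Smad2 and Smurf2) and 4 higher, against 9.12% and 9.27%. Tgfbr1 (D-EPSCs) and the receptor Acvr1c and the antagonist Cer1 (L-EPSCs) were called higher in 1 EPSC state. The other EPSC state lay just short of the limits. The log2 ratios over ESCs in D-EPSCs and L-EPSCs were 1.06 and 0.88 at Tgfbr1 and 0.94 and 1.26 at Acvr1c. Cer1 had none (ESCs), 0.97 kb (D-EPSCs, under the 1 kb limit) and 1.00 kb (L-EPSCs). The 2 of 36 genes called higher in both, against 5.99% of 17936 windows, were Inhba, an activin subunit, with none (ESCs), 3.73 kb (D-EPSCs) and 2.42 kb (L-EPSCs), and Mixl1, a mesendoderm target gene, with none, 1.28 and 1.70 kb. Neither had H3K27ac in its window in any state.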

How the data were processed

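Per the labels and the study's methods, the authors trimmed paired-end reads (Trim Galore 0.6.3, FastQC 0.10.1), aligned them to mm9 with Bowtie2 2.3.5, sorted and converted the alignments with SAMtools 1.10 and called broad peaks with MACS against input. The deposited files give a chromosome, start, end and name per peak, with no count, signal or score, so read depth is unknown. The thresholds of the peak calls and the pooling of samples are not given in the sources used here. Both set how long a list is, as depth does. Per the submitters' processing notes HOMER and cutadapt were also used.

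Lists were assigned to states and marks by the sample labels. No peak passed a chromosome end of the NCBIM37 genome (mm9), which also gave the sequences, and GENCODE M1 gave the genes. All coordinates are 1-based. Covered bases were summed in each gene span with 20 kb on each side. A window was called lower or higher at a 2-fold difference where at least 1 kb was covered in either list, and a window at 0 in 1 list counted as called. A start counted as marked with a peak within 1 kb, and peaks overlapped at 1 bp or more. No test was run, because each state and mark had 1 list.

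The members, the pathway list, the cell type markers and the rules were chosen with earlier results of these data known. All members are named. A further gene of the pathway list and a region at Lefty2 are not reported here, and that gene was left out of the list's counts and medians. Of the 37 pathway genes those called in the same direction in both EPSC states are named, at most 6 per mark and direction. In addition, Acvr2b, Dand5, Fst, Cfc1, Smad2, Smurf2, Tgfbr1, Acvr1c and Cer1 were named after their values were seen. For Nodal, Lefty1 and Lefty2 the 2 genes nearest over the 6 lists are named. H3K27ac regions are described where they were at least 3 kb wide and not in all 3 states, or widest in a window. The rule also picked the widest H3K4me1 region of each window, and these are not described as such. Of the sequences that the rule picked, those of Lefty1 and Lefty2 starts and of the ESC-only region at Nodal are printed. The TGTGGATT matches, the rule for their pairs and the 300 bases in a Smad3 intron were added after seeing the data. So were the bases without acetylation under H3K4me1, the search for shared Lefty sequence and the background of windows with at least 5 kb.

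Alternatives were windows with 10 kb, 50 kb or no flanks, peaks of at least 500 bp, peaks joined within 1 kb, numbers of peaks, shares of a list's covered bases, lists of equal covered bases or equal numbers of peaks, peaks at other genes' starts left out, 1.5-fold and 4-fold calls, start windows of 500 and 2500 bp, regions joined over 1 kb and an overlap of 50% of the H3K4me1 peak. The code was tested on simulated data, 200 list pairs and 700 windows, with 0 errors. Python 3.11.15, numpy 2.4.6, scipy 1.17.1 and matplotlib 3.10.9 were used.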

Additional observations from a re-analysis of the deposited data

Results flagged for a closer look

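H3K4me1 at Skil stood out because its values moved in opposite directions in the EPSC states: the log2 ratio over ESCs was 0.16 in D-EPSCs and -0.25 in L-EPSCs, from 26.06 kb (ESCs), 29.07 kb (D-EPSCs) and 21.90 kb (L-EPSCs). Each state has 1 list, so the difference was not tested. As a share of each list's covered bases both ratios were above 0, at 0.40 and 0.10.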

How the results depend on the processing

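No paired analysis was possible because each state and mark has 1 peak list and the lists carry no replicate numbers. For the same reason no sample was left out. Of 646 values under the alternatives, 554 kept within the limits set for a like value, 89 moved and 3 reversed, and 9 further gene ratios had no finite value because a list held no bases there. Over ESCs, 11 of 133 H3K27ac ratios of single genes were above 0, of which 7 were shares of the list's covered bases.

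The number of genes called lower in H3K27ac in D-EPSCs, 4 as reported, was 2 with lists of equal covered bases, 0 with shares of the list, 7 at 1.5-fold and 1 at 4-fold, and for L-EPSCs, also 4 as reported, it was 7 with 50 kb flanks and 0 with shares of the list. The number called higher in D-EPSCs, 0 as reported, was 2 with lists of equal covered bases and 1 with lists of equal numbers of peaks. In L-EPSCs Smad3 was called higher with both kinds of list and with shares of the list. The median log2 ratio in D-EPSCs was -0.11 with equal covered bases and 0.21 with shares of the list, and in L-EPSCs -0.92 with 10 kb flanks, -0.54 with equal covered bases and -0.04 with shares of the list. With shares of the list the D-EPSC ratio of Lefty1 was 0.21, and with equal covered bases the L-EPSC ratio of Smad7 was 0.02. With equal covered bases 1 H3K27ac and 0 H3K4me1 regions were in ESCs only. Such lists keep the widest peaks, 3725 of ESCs, 13675 of D-EPSCs and 26966 of L-EPSCs in H3K27ac, so narrow ESC peaks drop out by construction. Within 2500 bp, 7 starts had H3K4me1 in ESCs. Where 50% of an H3K4me1 peak had to be under H3K27ac, the share was 38.5% (ESCs), 12.1% (D-EPSCs) and 6.45% (L-EPSCs), so ESCs stayed highest and the order of the EPSC states turned. Apart from these constructions the cause was not tested. Read depth is unknown, so a missing peak means that none was called, and not that the mark was absent.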
